A study of Mus musculus with 18 samples.

Results

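Pancreatic islets were taken from mice that made human islet amyloid polypeptide (hIAPP) in their beta cells, and their RNA was sequenced and compared gene by gene with that of wild-type (WT) islets. The comparison used 12 of the 18 libraries of the series, those whose genotype was given as hIAPP (6 libraries) or WT (6 libraries), and every gene that passed a filter on low counts (20244 genes). All 12 mice were 6 weeks old and on the FVB background. The hIAPP mice carried a transgene with the human IAPP sequence under the insulin II promoter, which restricts it to beta cells, and the WT mice carried no transgene. The 6 remaining libraries came from rIAPP mice, which carried a transgene for the rodent peptide under the same promoter. They entered the fit for its estimate of spread, and their levels stand beside some results. The sources used here do not give transgene copy number, zygosity or site of insertion.

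Islet amyloid polypeptide is a small hormone that beta cells store and release with insulin. The human peptide aggregates readily and forms amyloid in islets of people with type 2 diabetes, while the rodent peptide does not. Misfolded peptide is handled by the secretory pathway, by lysosomes and by macrophages, and stress in that pathway is read out through transcription factors such as ATF4 and CHOP.

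Libraries are named by genotype and number, and levels are given as CPM, the usual count unit scaled for library size, here also for composition. For a gene, the 3 values of a group are the lowest, the median and the highest of its 6 libraries. A gene was called higher or lower at an adjusted p under 0.05 in edgeR's quasi-likelihood test, with adjustment over all genes tested, and fold changes are on the log2 scale, hIAPP minus WT, with their standard error (SE). In whole islets, fewer cells of a type and less RNA per cell cannot be told apart.

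The libraries held 110 to 142 M counts (M for mega) in hIAPP and 144 to 166 M in WT, and the groups did not overlap (exact two-sided permutation p = 0.00216, the smallest that 6 against 6 libraries allow, adjusted over 6 library summaries 0.00648). Islet hormones marked the tissue as labelled, with Ins1 and Ins2 together at 4.71 to 9.63% of counts in hIAPP and 8.92 to 10.2% in WT (exact permutation p = 0.0238, adjusted 0.0286). Digestive enzymes and other acinar markers, which show exocrine tissue carried along with islets, took 0.309 to 2.40% of counts in hIAPP and 0.115 to 0.490% in WT (exact permutation p = 0.00433, adjusted 0.00866). The libraries hIAPP 5 and hIAPP 6 stood apart from the other 10. They had the lowest insulin shares of the 12 (4.71% and 6.05%), the highest acinar shares (1.47% and 2.40%), and lay at 63.2 and 65.8 on the first principal component, where the other 10 of the 12 libraries lay between -48.7 and 19.2. Results below are therefore also given without these 2 libraries, or with an acinar score (the mean log2 CPM of the acinar markers) as a covariate. This was done where either ended a call or moved a count by over 1.5 times, in some cases for only 1 of the 2. Acinar shares differed between the groups, so the covariate takes up part of the difference between genotypes. The 2 cannot be fully told apart, and what a call lost with the covariate reflects was not tested.

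**Figure D1:**
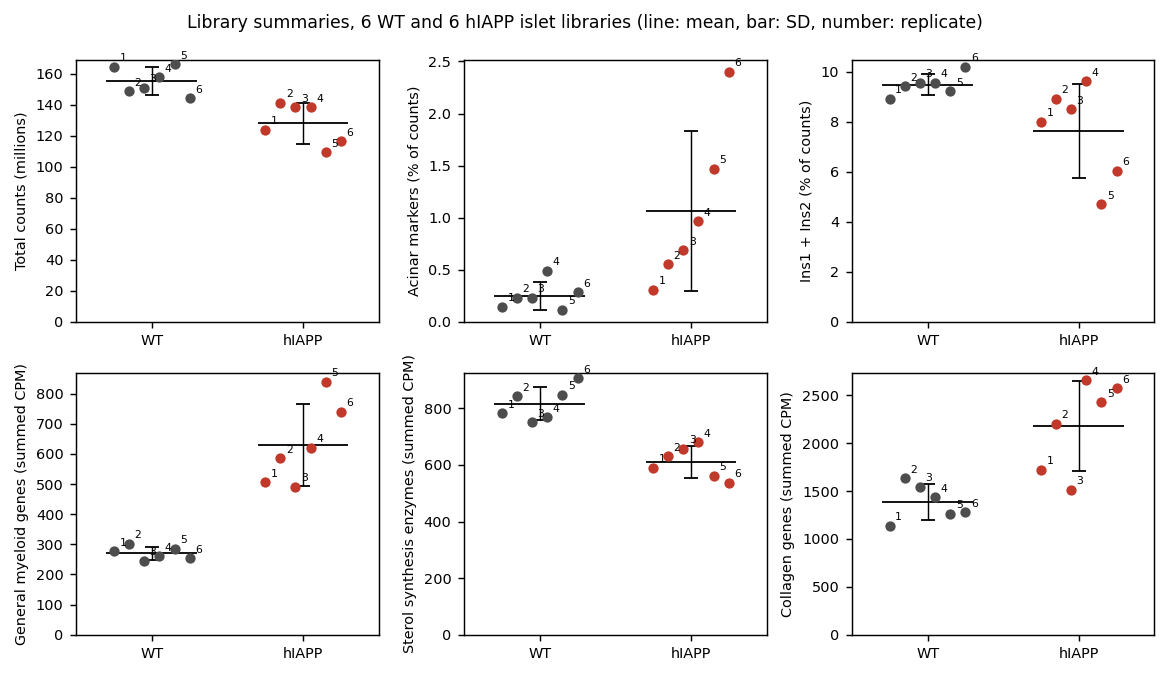
Total counts, shares of counts and summed CPM of 3 gene groups in the 6 WT and 6 hIAPP libraries. Each point is a library with its number, the line is the mean and the bar the SD. Totals, myeloid genes and sterol synthesis enzymes separate the groups without overlap, while acinar and insulin shares are most extreme in hIAPP 5 and hIAPP 6.

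Of the 20244 genes, 1683 were higher (8.31%) and 1525 lower (7.53%) in hIAPP, together 15.8%. Counts of list members below are to be read beside these shares. The higher genes moved further: 432 of them rose at least 2-fold, whereas 145 fell at least 2-fold, and the median log2 fold change was 0.55 among higher genes and -0.31 among lower ones (-0.01 over all genes). For 757 genes (3.74%) all 6 hIAPP libraries lay above all 6 WT libraries, and for 586 (2.89%) all lay below. The balance of the 2 directions depended on scaling: with library totals alone, without a correction for composition, 3139 genes were higher and 480 lower (86.7% higher, against 52.5% in the fit used here), and the median over all genes moved from -0.01 to 0.106. Adding the acinar score as a covariate gave 507 higher and 294 lower genes, and without hIAPP 5 and hIAPP 6 the counts were 1037 and 638.

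**Figure D2:**
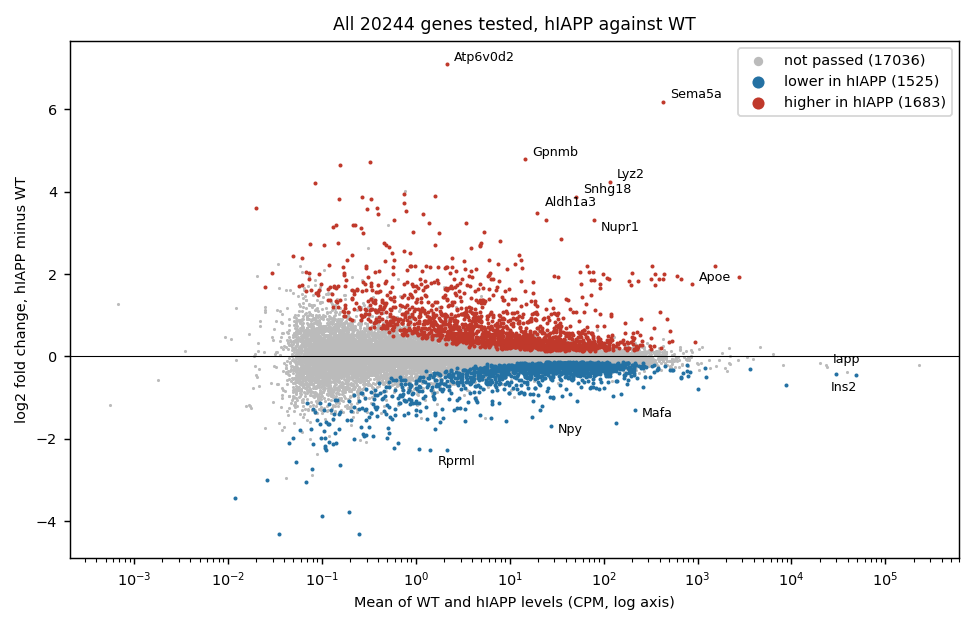
Log2 fold change of each of the 20244 genes against its mean level in CPM (log axis), with genes called higher in red, lower in blue and not passed in grey. Sema5a lies above every gene of similar level, and the 432 genes that rose at least 2-fold outnumber the 145 that fell as much.

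The smallest p values of the comparison belonged to a pair of neighbouring genes on chromosome 15. Sema5a encodes a transmembrane semaphorin, a family of guidance cues for axons and migrating cells, and Snhg18 is a long noncoding RNA that hosts a small nucleolar RNA. On GRCm38, Sema5a runs from 32244810 to 32696341 on the plus strand and Snhg18 from 32240565 to 32244662 on the minus strand, so they are transcribed away from each other. Sema5a lay at 8.91, 11.7 and 13.9 CPM in WT and at 777, 832 and 994 in hIAPP (log2 fold change 6.18 ± 0.13, adjusted p = 4.27e-18). Snhg18 lay at 5.87, 6.48 and 6.92 CPM in WT and at 79.7, 97.8 and 104 in hIAPP (3.87 ± 0.08, adjusted p = 4.27e-18). For both genes all 6 hIAPP libraries were high with little spread and no WT library came near them. In rIAPP the medians were 6.55 CPM for Sema5a and 11.1 for Snhg18, and both genes differed between the 2 transgenic groups (6.96 ± 0.13 and 3.14, adjusted p = 1.42e-18 and 6.31e-17).

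The rise did not extend to the next genes on either side. Cct5, a subunit of a cytosolic chaperonin that starts 0.65 Mb before Sema5a, had medians of 188 CPM in WT and 215 in hIAPP and did not pass (0.13, adjusted p = 0.365). Of the other tested neighbours plotted, 5 were lower, none was higher and the rest did not pass. Cmbl, a hydrolase gene 0.68 Mb before Sema5a, fell by 1.41 ± 0.09 on the log2 scale from 6.42, 6.99 and 7.55 CPM to 2.19, 2.60 and 3.06 (adjusted p = 4.94e-09). Cpq, which encodes a secreted carboxypeptidase 0.84 Mb after it, fell by 0.79 ± 0.08 (adjusted p = 7.78e-07). The proteoglycan gene Sdc2 (-0.29), Tspyl5 (-0.62) and Mtdh (-0.19) were the remaining lower neighbours. In rIAPP the medians were 4.65 CPM for Cmbl and 123 for Cpq, and each was lower in hIAPP than in rIAPP too (-0.89 and -0.90, adjusted p = 3.69e-07 and 2.21e-08). Among all 60 tested semaphorins, plexins, neuropilins, ephrins, netrins and slits, 8 were higher and 5 lower (median 0.05). Over all genes 8.31% were higher and 7.53% lower. The family counts were 2 and 1 with the acinar score as covariate and 4 and 4 without hIAPP 5 and hIAPP 6. Plxnc1, a semaphorin receptor present on myeloid cells, rose by 1.55 ± 0.17, and Unc5c, a netrin receptor, fell by 0.50 ± 0.09. Plxnb3 (0.25), a receptor of SEMA5A, and Plxna1 (0.12) did not pass. Sdc2, Mtdh and Unc5c did not pass with the acinar score as covariate.

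A run of lower genes lay near the distal end of the X chromosome, noticed after the values were seen. From Prps2 (start 167346322) to Mid1 (start 169685199), all 9 consecutive tested genes were lower in hIAPP, and in each the 6 hIAPP libraries lay below the 6 WT libraries. Hccs, which encodes the enzyme that attaches heme to cytochrome c, had the smallest p of all lower genes: 28.5, 31.4 and 33.5 CPM in WT against 11.3, 14.0 and 14.7 in hIAPP (-1.2 ± 0.07, adjusted p = 1.71e-09). Prps2, an enzyme of nucleotide synthesis, fell by 0.91 ± 0.06, Msl3, a chromatin protein, by 0.95 ± 0.06, and Mid1, a ubiquitin ligase, by 1.09 ± 0.18. The rIAPP medians of Hccs (14.6 CPM), Msl3 (25.2) and Mid1 (3.76) lay near those of hIAPP (14.0, 24.6 and 3.36), and hIAPP and rIAPP were not called different for them (adjusted p = 0.135, 0.843 and 0.994). Frmpd4, a scaffold protein gene inside the run, did not share this: its median was 1.52 CPM in WT, 0.664 in hIAPP and 3.53 in rIAPP. Prps2 (-0.26, adjusted p = 0.00178) and Gm15261 (-1.71, adjusted p = 0.00196) were also called lower in hIAPP than in rIAPP. The other genes of the run were not called different between these groups. The 2 tested genes before the run, Tlr8 (1.45 ± 0.22) and Tlr7 (0.82 ± 0.26), encode receptors for RNA in myeloid cells and were higher. Both lost their call with the acinar score as covariate, and Tlr7 also without hIAPP 5 and hIAPP 6. On the whole X chromosome 76 of 616 tested genes were lower (12.3%) and 38 higher (6.17%), beside 7.53% and 8.31% over all genes. Chromosome 18 had similar shares, 12% lower and 5.38% higher.

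**Figure D3:**
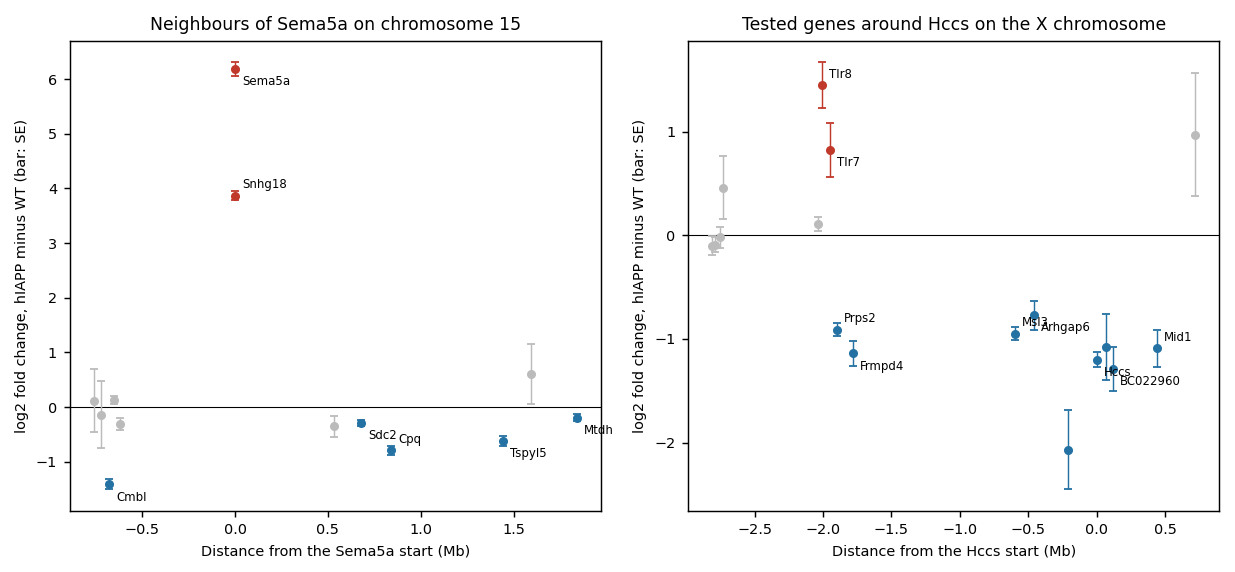
Log2 fold change (bar: SE) against distance in Mb from the start of Sema5a (left) and of Hccs (right) for the tested genes nearby. Sema5a and Snhg18 at 0 are the only higher genes on the left, and an unbroken run of lower genes from Prps2 to Mid1 is seen on the right.

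Macrophages live in healthy islets, and their genes were broadly higher. Of 12 tested genes of resident macrophages 8 were higher and none lower (median 1.10), and of 22 general myeloid genes 20 were higher and none lower (median 1.34), beside 8.31% higher over all genes. Lyz2, the lysozyme of myeloid cells, lay at 9.54, 11.9 and 13.6 CPM in WT and at 151, 206 and 343 in hIAPP (4.24 ± 0.18, adjusted p = 5.08e-12), although near-identical Lyz1 can share its reads. Csf1r, the receptor that macrophages need to survive, rose less, from 10.8, 11.2 and 12.3 CPM to 17.5, 20.8 and 24.4 (0.86 ± 0.08, adjusted p = 7.78e-07). All 6 hIAPP libraries exceeded all WT libraries for both genes, with hIAPP 5 highest for Lyz2 and hIAPP 6 for Csf1r. Complement genes C1qa (0.56 ± 0.10), C1qb (1.53 ± 0.19) and C1qc (1.6 ± 0.19), the fractalkine receptor Cx3cr1 (1.40 ± 0.18), Adgre1 (1.40 ± 0.15), which encodes F4/80, and the engulfment receptor Mertk (1.28 ± 0.17) were also higher. Not every macrophage gene was called: Mrc1 (0.37), Lyve1 (0.28), Cd163 (-0.51) and Timd4 (0.91), all of tissue macrophage subsets, did not pass. Cd163 and Timd4 reached no more than 0.211 and 0.0879 CPM in any WT or hIAPP library, so their tests say little. Log2 fold changes of the 12 resident macrophage genes ran from -0.51 to 4.65. The highest belonged to a member called higher that is not reported here, so the members named do not show the full range of the list. Il34, a second ligand of the CSF1 receptor and no member of the lists, rose by 1.03 ± 0.11, while the first ligand, Csf1, did not pass (-0.20, adjusted p = 0.137); both were chosen after their values were seen.

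Genes of lipid-laden macrophages, cells that have taken up debris and lipid, held the largest folds among myeloid genes. Of 22 tested, 15 were higher and 2 lower (median 0.97). Trem2, their lipid-sensing receptor, lay at 1.14, 1.25 and 1.57 CPM in WT and at 6.14, 7.38 and 12.8 in hIAPP (2.69 ± 0.19, adjusted p = 1.49e-08). Gpnmb, a glycoprotein of phagocytes, lay at 0.609, 0.922 and 1.56 CPM in WT and at 12.0, 17.3 and 73.9 in hIAPP (4.78 ± 0.43), and Atp6v0d2, a proton pump subunit, at no more than 0.0791 CPM in WT and at 1.06, 2.19 and 13.7 in hIAPP (7.09 ± 0.73). For Gpnmb and Atp6v0d2 the highest level came from hIAPP 5, at several times the median, yet the lowest hIAPP library was still above every WT library. The lipid carrier genes Apoe (1.75 ± 0.09) and Apoc2 (3.30 ± 0.35), the lectin Clec7a (2.18 ± 0.20), the integrin Itgax (1.97 ± 0.22), the scavenger receptor Msr1 (2.18 ± 0.25), Lgals3 (2.34 ± 0.31) and Mmp12 (2.11) rose as well. Spp1 and Lpl, the 2 lower members, fell by 0.73 ± 0.11 and 0.55 ± 0.09; the groups did not overlap for Spp1 and overlapped for Lpl. Without hIAPP 5 and hIAPP 6, 15 members of this list were higher and 3 lower, and with the acinar score as covariate 12 and 2. Mmp12 was among those that lost their call with the covariate.

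Further genes named for a small p or a large fold included several that myeloid cells are known to express. Fcrls (3.90 ± 0.24) and Gpr34 (2.08 ± 0.15) are known from resident macrophages of the brain, Ms4a4a (3.54 ± 0.27), Cd84 (2.71 ± 0.20), Fcgr2b (2.08 ± 0.15) and Vsir (1.35 ± 0.09) encode surface proteins of myeloid cells, Mpeg1 (2.20 ± 0.17) a pore-forming protein of macrophages, and Pla2g7 (2.35 ± 0.15) a secreted phospholipase. Wfdc17 (3.94 ± 0.38) and the serotonin receptor gene Htr2b (3.72 ± 0.35) rose from WT medians of 0.0894 and 0.0994 CPM. Trf, the iron carrier transferrin (1.81 ± 0.12), and Sel1l3 (0.82 ± 0.06) completed the 15 smallest p values among higher genes. Summed over the 22 general myeloid genes, levels were 245 to 302 CPM in WT and 491 to 839 in hIAPP (exact permutation p = 0.00216, adjusted 0.00648), while in rIAPP they were 133 to 159 CPM.

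The genes of antigen presentation did not follow the other myeloid genes. Of 13 tested MHC class II genes and costimulators, 4 were lower and 1, Cd40, was higher (median -0.30). Cd74, the invariant chain, lay at 59.9, 66.7 and 83.7 CPM in WT and at 23.4, 31.6 and 43.7 in hIAPP (-1.09 ± 0.13, adjusted p = 1e-05). The class II chains H2-Aa (-0.98 ± 0.14) and H2-Ab1 (-0.99 ± 0.16) and the loading factor H2-DMa (-0.41 ± 0.10) fell with it, and for Cd74, H2-Aa and H2-Ab1 the groups did not overlap. Their class II activator Ciita fell short of the threshold (-0.64 ± 0.22, adjusted p = 0.0538). In rIAPP the median of Cd74 was 60.8 CPM, and hIAPP was lower than rIAPP (-0.87, adjusted p = 2.88e-05). With the acinar score as covariate 4 members were lower, and without hIAPP 5 and hIAPP 6 the count was 5. None of 15 class I and peptide loading genes passed (median 0.06). Ccr2, the receptor of blood monocytes, lay at 2.23, 2.80 and 4.07 CPM in WT and at 1.09, 1.33 and 3.06 in hIAPP (-0.82 ± 0.23, adjusted p = 0.0202), with hIAPP 6 inside the WT range. The call of Ccr2 was lost without WT 6, and that of Cd40 without hIAPP 5 and hIAPP 6.

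Most chemokine and interleukin genes did not pass. Of 31 chemokines and their receptors 6 were higher and 2 lower (median 0.15): Cxcr4 (0.92 ± 0.10), Cxcl16 (0.99 ± 0.14), Ccl6 (1.52 ± 0.25), Cxcl10 (3.12 ± 0.54, from a WT median of 0.0514 CPM to 0.331) and Ackr2 rose besides Cx3cr1, while Cx3cl1, its ligand, fell (-0.41 ± 0.11). The monocyte attractant Ccl2 did not pass (-0.44). Of 18 inflammasome and interleukin-1 genes 4 were higher, among them 2 inhibitors, Il18bp (0.97 ± 0.21) and the receptor antagonist Il1rn (1.40 ± 0.40), and 1 lower, Il1rap. Il1b lay at 0.778, 2.08 and 2.64 CPM in WT and at 0.268, 1.11 and 3.23 in hIAPP and did not pass (-0.39, adjusted p = 0.625), nor did Nlrp3 (0.48) or Casp1 (0.46). Under the acinar covariate no gene of the inflammasome list passed (5 without it). Without hIAPP 5 and hIAPP 6, 2 of that list were higher and none lower, and Il1rn and Il1rap lost their call. Il1rn also lost it without hIAPP 5 alone. Cxcl10, Ackr2 and Cx3cl1 lost their call with the acinar covariate too, and Cx3cl1 also without hIAPP 5 and hIAPP 6. Of lymphoid and granulocyte markers, 5 of 12 T cell, 5 of 9 B cell, 8 of 10 neutrophil and 6 of 7 mast cell markers failed the filter on low counts. The tested members called higher were Cd4, Cd22, Csf3r and Kit, each the only one of its list. Kit lost its call with the acinar covariate and without hIAPP 5 and hIAPP 6.

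**Figure D4:**
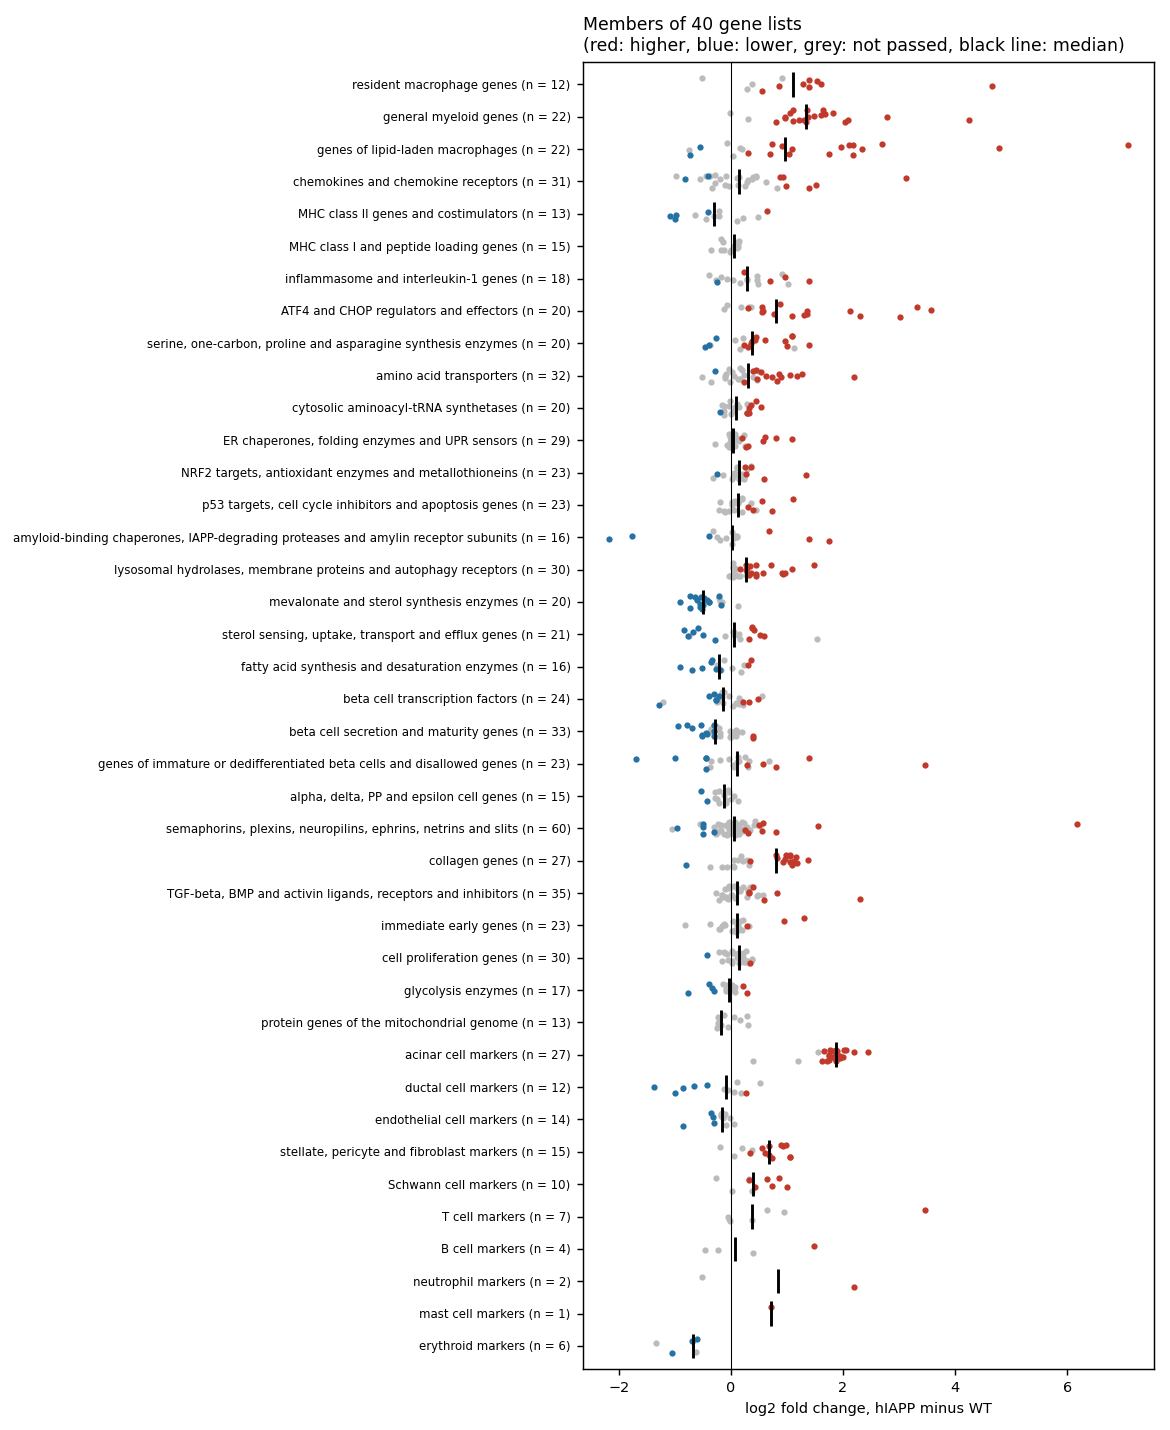
Log2 fold change of the tested members of 40 gene lists, 1 row per list, with members called higher in red, lower in blue and not passed in grey, and the median as a black line. Myeloid, ATF4 and collagen lists lie mostly to the right of 0 and sterol synthesis enzymes mostly to the left. The acinar markers run from 0.39 to 2.45, with a median of 1.87.

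Regulators and effectors of the integrated stress response, in which reduced translation initiation lets ATF4 be made, were also mostly higher. Of 20 tested, 15 were higher and none lower (median 0.81). ATF4 and its partners bind composite C/EBP-ATF elements, written here as TGATGNAA and searched on both strands in RefSeq promoter windows of GRCm38.p6 (250 bases before to 50 after a start). The letters occurred in 1304 of 32851 windows (3.97%) and in 381 of 13224 tested genes with a window (2.88%). Among genes with a window they occurred in 6 of 18 of these regulators, 4 of 16 enzymes of serine, one-carbon, proline and asparagine synthesis, 3 of 24 amino acid transporters and 5 of 13 cytosolic aminoacyl-tRNA synthetases. Of these 18 genes 15 were higher. Of all 381 tested genes with the letters, the 18 included, 65 were (17.1%), beside 8.31% of all 20244 genes and 10.3% of 15180 protein-coding genes. The like share among the 13224 tested genes with a window was not computed, so these shares are not a matched background. The lists were written with earlier results known and held many higher members with and without the letters. The 15 of 18 therefore cannot show a part of the element. A match describes the letters and is not evidence of binding. The 250 bases before the start are shown for 4 of the higher genes, 5′ to 3′ on the gene's strand, with matches in capitals, because these genes span a regulator, a glutathione enzyme, a transporter and a synthesis enzyme. Slc7a11 (chr3:50443614-50443863, minus strand) holds 2 matches, 1 in each orientation, and Nupr1 (chr7:126625471-126625720, minus), Chac1 (chr2:119350992-119351241, plus) and Pycr1 (chr11:120643749-120643998, minus) hold 1 each.
Nupr1: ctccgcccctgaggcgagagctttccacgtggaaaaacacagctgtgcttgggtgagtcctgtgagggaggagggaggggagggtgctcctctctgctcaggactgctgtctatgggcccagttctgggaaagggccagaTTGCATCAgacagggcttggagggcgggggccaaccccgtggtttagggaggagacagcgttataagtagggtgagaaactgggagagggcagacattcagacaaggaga
Chac1: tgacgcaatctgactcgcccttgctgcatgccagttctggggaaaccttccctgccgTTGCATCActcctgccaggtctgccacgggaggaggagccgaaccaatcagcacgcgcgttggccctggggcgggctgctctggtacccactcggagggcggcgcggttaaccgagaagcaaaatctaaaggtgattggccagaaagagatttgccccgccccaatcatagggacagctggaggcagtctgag
Slc7a11: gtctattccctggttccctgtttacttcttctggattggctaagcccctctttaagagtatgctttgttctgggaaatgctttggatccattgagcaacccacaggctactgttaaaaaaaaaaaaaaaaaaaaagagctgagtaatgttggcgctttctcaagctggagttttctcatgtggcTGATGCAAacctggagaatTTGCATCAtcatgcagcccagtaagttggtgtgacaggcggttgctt
Pycr1: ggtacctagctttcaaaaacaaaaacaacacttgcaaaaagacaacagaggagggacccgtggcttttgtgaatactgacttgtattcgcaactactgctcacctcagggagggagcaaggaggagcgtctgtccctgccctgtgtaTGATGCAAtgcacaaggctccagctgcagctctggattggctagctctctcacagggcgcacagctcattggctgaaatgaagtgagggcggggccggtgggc

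Trib3, a pseudokinase that feeds back on ATF4, lay at 0.724, 1.2 and 1.59 CPM in WT and at 5.41, 7.78 and 21 in hIAPP (3.02 ± 0.32, adjusted p = 2.48e-06). Nupr1, a small chromatin protein induced by stress, lay at 8.63, 15.4 and 20.7 CPM in WT and at 74.1, 92.2 and 298 in hIAPP (3.31 ± 0.35, adjusted p = 3.08e-06). Chac1, which degrades glutathione, lay at 1.88, 3.30 and 5.31 CPM in WT and at 6.30, 12.9 and 31.7 in hIAPP (2.13 ± 0.35, adjusted p = 3.08e-04). In each, hIAPP 6 was highest and the groups did not overlap. Ddit3, which encodes CHOP, rose by 1.36 ± 0.17, Atf5 by 1.08 ± 0.17, the translation inhibitor Eif4ebp1 by 1.36 ± 0.17, the hormone genes Gdf15 and Fgf21 by 2.31 ± 0.34 and 3.57 ± 0.66 from a median of 0.18 CPM or less in WT, and Atf4 itself, which is controlled mainly at translation, by 0.30. The phosphatase subunit Ppp1r15a (0.18) and the oxidase Ero1a (-0.12), both targets of this response in other cells, did not pass. Under the acinar covariate 10 were higher, and without hIAPP 5 and hIAPP 6 15 were. Atf4 and Fgf21 were among those lost with the covariate. In rIAPP the medians of Nupr1 (80.3 CPM), Chac1 (12.1) and Trib3 (4.37) lay above the WT ranges too, and of these only Trib3 differed between the transgenic groups (1.12, adjusted p = 0.00681; Nupr1 0.74, 0.0994; Chac1 0.44, 0.359).

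Amino acid supply genes moved in part with these regulators. Of 20 enzymes of serine, one-carbon, proline and asparagine synthesis 12 were higher and 3 lower (median 0.37). Pycr1, the last enzyme of proline synthesis, lay at 6.95, 7.39 and 8.43 CPM in WT and at 12.3, 16.2 and 20.4 in hIAPP (1.09 ± 0.11, adjusted p = 9.53e-07), with no overlap. The mitochondrial folate enzymes Mthfd2 (1 ± 0.13) and Aldh1l2 (1.39 ± 0.19), the serine enzymes Psat1 (0.96 ± 0.15) and Phgdh (1.09 ± 0.17) and the transaminase Gpt2 (0.60 ± 0.10) rose, while the cytosolic folate enzyme Mthfd1 fell (-0.46 ± 0.09). Of 32 amino acid transporters 14 were higher and 1 lower (median 0.31). Slc7a11, the cystine importer, lay at 0.204, 0.294 and 0.464 CPM in WT and at 0.937, 1.39 and 2.20 in hIAPP (2.19 ± 0.28, adjusted p = 2.78e-05), again without overlap, and the taurine transporter Slc6a6 was the lower member (-0.28 ± 0.05). Of 20 cytosolic aminoacyl-tRNA synthetases 7 were higher and 1 lower (median 0.09), with Cars (0.53 ± 0.13) and Iars (0.44 ± 0.10) first. With the acinar score as covariate 3 enzymes, 2 transporters and no synthetase were higher. Without hIAPP 5 and hIAPP 6 the counts were 10, 10 and 2. Psat1, Phgdh, Gpt2, Mthfd1, Slc6a6, Cars and Iars were among those lost with the covariate. Aass, which starts lysine breakdown and was chosen after its value was seen, rose by 1.94 ± 0.17 to a median of 9.10 CPM, beside 72.8 in rIAPP.

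Most chaperones of the endoplasmic reticulum did not pass. Of 29 chaperones, folding enzymes and sensors of the unfolded protein response 7 were higher and none lower (median 0.04). The higher members were mainly parts of ER-associated degradation and its regulators: Sel1l (0.57 ± 0.10), Herpud1 (0.60 ± 0.09), Edem1 (0.27 ± 0.06), Derl1 (0.20 ± 0.05), Derl3 (1.09 ± 0.16), the sensor Ern1 (0.80 ± 0.14) and Creld2 (0.31 ± 0.05). Sel1l lay at 157, 162 and 173 CPM in WT and at 207, 214 and 317 in hIAPP, without overlap. Hspa5, the main chaperone of the compartment (-0.01 ± 0.07), Xbp1 (-0.01) and the sensor genes Eif2ak3 (0.04) and Atf6 (0.08) did not pass. Of 23 NRF2 targets, antioxidant enzymes and metallothioneins 5 were higher and 1 lower (median 0.15), against 1 and 0 with the acinar covariate and 3 and 0 without hIAPP 5 and hIAPP 6. Hmox1, which degrades heme and is also made by macrophages, rose from 2.80, 2.96 and 3.68 CPM to 5.75, 6.44 and 11 (1.34 ± 0.15, adjusted p = 6.74e-06). Nqo1 (0.23), Gclm (0.14) and Txnrd1 (0.04), standard NRF2 targets, did not pass. Of 23 p53 targets, cell cycle inhibitors and apoptosis genes 5 were higher and none lower (median 0.12), among them Cdkn1a (1.10 ± 0.26) and the BH3 genes Bbc3 (0.56 ± 0.13) and Pmaip1 (0.73 ± 0.22), whereas Bax (0.12) and Mdm2 (-0.04) did not pass. With the acinar covariate 3 ER genes and 2 of the p53 list were higher, and without hIAPP 5 and hIAPP 6 7 and 3 were. Under the acinar covariate Sel1l, Edem1, Derl1, Ern1, Cdkn1a and Pmaip1 lost their call, the last 2 also without hIAPP 5 and hIAPP 6.

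Genes that bind or degrade amyloid peptides moved in both directions. Of 16 tested 3 were higher and 3 lower (median 0.02), beside 8.31% higher and 7.53% lower over all genes. The counts were 3 and 1 with the acinar covariate and 3 and 2 without hIAPP 5 and hIAPP 6. Ece2, an endothelin-converting protease that cleaves peptides in acidic compartments, lay at 14.1, 15.5 and 16.6 CPM in WT and at 22.8, 25 and 27.1 in hIAPP (0.68 ± 0.07, adjusted p = 3.72e-06), and hIAPP was also above rIAPP (0.92, adjusted p = 1.09e-08). The protease inhibitor gene Serpina3n rose by 1.40 ± 0.17. Mme, which encodes neprilysin, a peptidase that degrades IAPP, lay at 1.91, 2.41 and 3.45 CPM in WT and at 0.536, 0.640 and 1.21 in hIAPP (-1.77 ± 0.26, adjusted p = 1.08e-04), with no overlap. Ece1 fell by 0.40 ± 0.09, and Apcs, which encodes serum amyloid P, was lower at levels under 0.4 CPM. Ide, the insulin-degrading enzyme (0.07) and Bace2 (-0.32, adjusted p = 0.074) did not pass, nor did any tested amylin receptor subunit. The mouse Iapp gene fell by 0.42 ± 0.11 (adjusted p = 0.0156) from 25600, 33800 and 40100 CPM to 20900, 24400 and 30700, with overlap; the transgene's human sequence differs from it, so the level of Iapp is no test of the labels. The calls of Iapp and Ece1 were lost with the acinar score as covariate and without hIAPP 5 and hIAPP 6, and that of Apcs with the covariate.

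Lysosomal genes were higher in part. Of 30 hydrolases, membrane proteins and autophagy receptors 17 were higher and none lower (median 0.27), and with the acinar score as covariate 9 were higher. Ctsh, Ctsk, Sqstm1 and Mcoln1 were among those lost. Ctsd, the main aspartic protease of lysosomes, lay at 232, 256 and 269 CPM in WT and at 418, 486 and 788 in hIAPP (1.08 ± 0.12, adjusted p = 3.08e-06), with hIAPP 5 highest and no overlap. The other cathepsins Ctsb, Ctsa, Ctsh, Ctsk and Ctsz, the hexosaminidase subunit Hexa, the acid lipase Lipa, the autophagy genes Map1lc3b (0.35 ± 0.04) and Sqstm1 (0.44) and the ion channel Mcoln1 (0.28) were higher. The membrane protein Lamp1 (0.07), the cholesterol exporters Npc1 (0.12) and Npc2 (0.07) and the regulators Tfeb (0.26) and Tfe3 (0.03) did not pass. Summed myeloid genes were higher in the same libraries, and their part in the lysosomal values was not tested.

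Sterol synthesis enzymes were lower from the first committed step to the late steps. Of 20 tested 16 were lower and none higher (median -0.49), and their summed level was 751 to 907 CPM in WT and 537 to 681 in hIAPP. Hmgcs1 lay at 79.8, 87.2 and 117 CPM in WT and at 44.5, 53.5 and 65.5 in hIAPP (-0.73 ± 0.11, adjusted p = 1.6e-04). Enzymes of the shared early steps (Idi1 -0.91, Fdps -0.56, Mvd -0.56), squalene steps (Sqle -0.40, Fdft1 -0.42, Lss -0.51) and late steps (Cyp51 -0.65, Msmo1 -0.73, Nsdhl -0.53) were all called. Dhcr7, the enzyme of the last step, did not pass (-0.21, adjusted p = 0.0616). Under the acinar covariate 8 enzymes were lower (median -0.45), and without hIAPP 5 and hIAPP 6 10 were (median -0.41). Mvd and Fdft1 were lost in both cases, and Nsdhl with the covariate. The series title names cholesterol, so the direction of this list is not independent evidence.

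Genes of sterol sensing, uptake and efflux moved in both directions. Stard4, a cytosolic cholesterol carrier, lay at 16.8, 20 and 22 CPM in WT and at 7.70, 12 and 16.7 in hIAPP (-0.77 ± 0.15, adjusted p = 0.00147), with hIAPP 6 lowest and no overlap. Other genes of sterol sensing fell with it: Insig1 (-0.59 ± 0.13), Srebf1 (-0.50 ± 0.10) and Srebf2 (-0.29). Of the liver X receptor axis and cholesterol export, Abca1 (0.38), Nr1h3 (0.41 ± 0.10), Mylip (0.38 ± 0.09) and Scarb1 (0.33 ± 0.08) were higher, as were the oxysterol enzymes Cyp7b1 (0.59 ± 0.10) and Cyp27a1 (0.52), while Abcg1 (0.03), Soat1 (0.05) and Scap (0.16) did not pass. In all, 6 of 21 were higher and 6 lower (median 0.05), and with the acinar score as covariate 1 and 1 were. Without hIAPP 5 and hIAPP 6, 3 were higher and 5 lower. Insig1, Stard4, Nr1h3 and Cyp7b1 lost their call with the covariate, and Srebf2, Abca1, Mylip and Cyp27a1 there and without hIAPP 5 and hIAPP 6. Of 16 fatty acid synthesis and desaturation enzymes 7 were lower and 2 higher (median -0.21), against 3 and 0 with the acinar covariate and 4 and 2 without hIAPP 5 and hIAPP 6. Scd2 fell from 159, 196 and 235 CPM to 92.7, 94.8 and 134 (-0.91 ± 0.11, adjusted p = 9.64e-06) and Fads2 from 39.3, 43.4 and 47.0 to 22.6, 27.2 and 30.2 (-0.69 ± 0.08, adjusted p = 3.72e-06), both without overlap, whereas Fasn did not pass (-0.17). A sterol regulatory element, searched on both strands by one fixed spelling, was found in 77 of 32851 promoter windows (0.234%) and in none of the 15, 13 and 13 windows of these 3 lists.

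Beta cell genes were lower in smaller numbers. Of 33 secretion and maturity genes 11 were lower and 2 higher (median -0.28), and without hIAPP 5 and hIAPP 6 2 were lower and 2 higher. Ins2 lay at 53400, 55300 and 64300 CPM in WT and at 25000, 46600 and 50300 in hIAPP (-0.45 ± 0.14, adjusted p = 0.032), and Ins1 at 41300, 43200 and 48100 against 17000, 38000 and 42300 (-0.38 ± 0.18, adjusted p = 0.164, not passed). In both, hIAPP 5 and hIAPP 6 were by far the lowest, and Ins2 lost its call without them. Slc2a2, the glucose transporter, showed the same form, at 1140 to 1390 CPM in WT, 380 and 412 in hIAPP 5 and hIAPP 6 and 846 to 1050 in the other hIAPP libraries (-0.79 ± 0.26, adjusted p = 0.0433). Its call was also lost without hIAPP 5 and hIAPP 6. None of the 33 passed with the acinar score as covariate. With library totals alone 3 were lower and 2 higher (median -0.16), and Ins2 and Slc2a2 were not called. The potassium channel gene Abcc8 (0.09) did not pass.

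A few beta cell genes separated the groups in all 12 libraries. Mafa, which drives insulin transcription in mature beta cells, lay at 224, 307 and 379 CPM in WT and at 64.7, 128 and 164 in hIAPP (-1.29 ± 0.18, adjusted p = 8.61e-05). Among 24 beta cell transcription factors it had the largest called change: 6 were lower and 3 higher (median -0.14), with Neurod1 (-0.39 ± 0.10), Pdx1 (-0.31) and Isl1 (-0.27 ± 0.06) lower and Nkx6-1 (-0.24) and Nkx2-2 (-0.03) not passing. Aldh1a3, known from beta cells that have lost maturity, lay at 2.04, 3 and 5.32 CPM in WT and at 22.3, 36.6 and 52.9 in hIAPP (3.47 ± 0.28, adjusted p = 7.14e-08), and here hIAPP 5 was the lowest of the 6. Npy, a peptide of immature beta cells, fell instead, from 30.5, 42.4 and 58.0 CPM to 11.2, 12.8 and 15 (-1.69 ± 0.15, adjusted p = 3.64e-07), as did Nnat (-1.61 ± 0.25). Of 23 immature or disallowed genes 5 were higher and 5 lower (median 0.10), and Neurog3 (-0.35) did not pass. In rIAPP the medians were 46.9 CPM for Mafa, 32.6 for Aldh1a3 and 9.92 for Npy, and of these 3 Mafa alone was called different between the transgenic groups (1.33, adjusted p = 1.51e-05). The counts of beta cell transcription factors were 1 higher and 1 lower with the acinar covariate and 1 and 3 without hIAPP 5 and hIAPP 6. Those of immature or disallowed genes were 1 higher and 3 lower, and 3 and 3. With library totals alone 5 of the transcription factors were higher and 1 lower (median -0.02). Neurod1 and Isl1 lost their call with the acinar score as covariate, and Pdx1 there and without hIAPP 5 and hIAPP 6. Neurod1, Isl1 and Pdx1 also lost it with library totals alone. Hormones of other endocrine cells did not pass: Gcg (-0.21), Sst (-0.29), Ppy (-0.09) and Ghrl (-0.28). Of their 15 genes 2 were lower, the delta cell factor Hhex (-0.42 ± 0.13) and Pou3f4 (-0.53 ± 0.16). Both lost their call with the acinar covariate, and Pou3f4 also without hIAPP 5 and hIAPP 6.

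**Figure D5:**
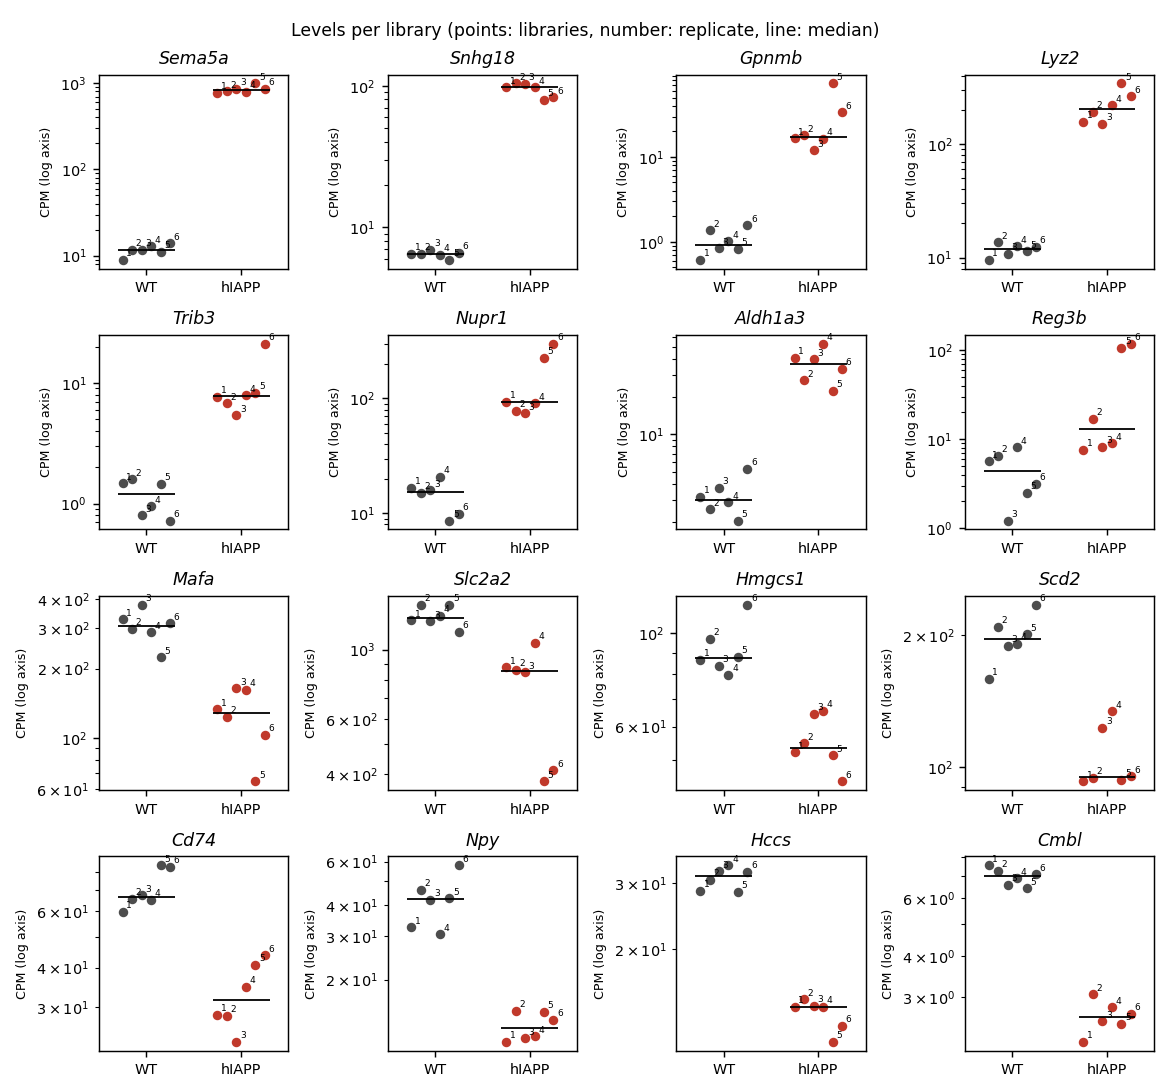
Level in CPM (log axis) of 16 genes in each of the 6 WT and 6 hIAPP libraries, numbered by replicate, with the median as a line. The groups separate for every gene shown except Reg3b, whose 2 highest points are hIAPP 5 and hIAPP 6.

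The regenerating family genes Reg3b and Reg3a were highest in hIAPP 5 and hIAPP 6. Reg3b, an antimicrobial lectin gene of stressed exocrine tissue, lay at 1.21, 4.37 and 8.12 CPM in WT and at 107 and 118 in hIAPP 5 and hIAPP 6, but at 7.59 to 16.9 in the other hIAPP libraries (3.30 ± 0.92, adjusted p = 0.0186). Reg3a, which shares sequence with other members of the family, showed 18.5 and 13.0 CPM in the same libraries and 0.500 to 3.10 in the other 4. Areg, an epidermal growth factor receptor ligand, also peaked there (6.11 and 4.62 CPM) but was above all WT libraries in each hIAPP library (3.24 ± 0.57). The calls of Reg3b and Reg3a were lost with the acinar score as covariate and without hIAPP 5 and hIAPP 6, and that of Areg with the covariate. Acinar markers, of which 24 of 27 were higher (median 1.87), were called higher in 3 cases without hIAPP 5 and hIAPP 6 (median 1.22). Of 12 ductal markers 5 were lower and 1 higher (1 and 0 with the acinar covariate), Sox9 falling from 1.72, 2.09 and 2.50 CPM to 0.764, 1.02 and 1.46 (-1 ± 0.16).

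Matrix genes and markers of matrix-producing cells were higher. Of 27 collagen genes 15 were higher and 1 lower (median 0.81), and of 15 stellate, pericyte and fibroblast markers 11 were higher and none lower (median 0.68). Col6a1, a chain of the microfibrillar collagen around cells, lay at 36.7, 51.9 and 62.4 CPM in WT and at 71.0, 115 and 146 in hIAPP (1.13 ± 0.16, adjusted p = 1.05e-04). Col8a1 (1.38 ± 0.18), Col5a2 (1.08 ± 0.16), Col6a2 (1.16 ± 0.18) and the fibrillar Col1a1 (1.06) and Col3a1 (0.92 ± 0.21) rose with it, while basement membrane chains rose little or did not pass (Col4a1 0.34, Col4a2 0.32, not passed). The pericyte genes Pdgfrb (0.56 ± 0.08), Rgs5 (0.61 ± 0.10) and Notch3 (0.68 ± 0.11) were higher in hIAPP than in both WT and rIAPP. Collagens as a whole did not share this. Their summed level was 1139 to 1635 CPM in WT, 1514 to 2658 in hIAPP and 1839 to 3116 in rIAPP. Summed stellate, pericyte and fibroblast markers were, in the same order, 833.5 to 1182, 1134 to 2052 and 1442 to 2326 CPM. Under the acinar covariate 4 collagens and 3 of these markers were higher, and without hIAPP 5 and hIAPP 6 the counts were 13 and 9. Ltbp1, which stores latent TGF-beta in the matrix, rose by 0.83 ± 0.09 from 9.29, 11.3 and 12.6 CPM to 16.4, 19.6 and 23.6, with no overlap. Of 35 TGF-beta, BMP and activin genes 6 were higher and none lower (median 0.10), beside 8.31% and 7.53% over all genes. The counts were 2 and 1 with the acinar covariate and 4 and 0 without hIAPP 5 and hIAPP 6. Schwann cell markers were higher in 6 of 10 cases (median 0.40), led by Foxd3 (1 ± 0.16), and endothelial markers lower in 4 of 14 (median -0.16), among them Kdr (-0.31 ± 0.07) and Tek (-0.32 ± 0.08), with Pecam1 not passing (-0.14). The acinar covariate gave 1 higher Schwann cell marker and 1 lower endothelial marker, and leaving out hIAPP 5 and hIAPP 6 gave 4 and 2. With library totals alone no endothelial marker was called (median -0.04), Kdr and Tek included. Col3a1, Foxd3 and Tek lost their call with the acinar score as covariate, and Col1a1 and Col4a1 there and without hIAPP 5 and hIAPP 6.

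Many of the most lowered genes belonged to no list. Rprml, a gene of the reprimo family, lay at 2.09, 2.36 and 2.62 CPM in WT and at 0.403, 0.463 and 0.699 in hIAPP (-2.28 ± 0.18, adjusted p = 5.66e-08). Ppp1r1b, the phosphatase inhibitor DARPP-32, lay at 2.42, 3.29 and 5.79 CPM in WT and at 0.413, 0.562 and 1.66 in hIAPP (-2.28 ± 0.31, adjusted p = 4.87e-05). Reln, a secreted glycoprotein of neuronal migration, lay at 27.3, 30.4 and 33.0 CPM in WT and at 11, 11.7 and 13.7 in hIAPP (-1.30 ± 0.11, adjusted p = 1.98e-07). All 3 separated the groups completely, and of them Reln had a similar rIAPP median (11.4 CPM), whereas that of Ppp1r1b (3.31) lay within the WT range. Other lower genes were Cyp2j5 (-2.24 ± 0.29), an arachidonate epoxygenase whose family shares sequence, Alb (-1.6 ± 0.25), Crp (-1.43 ± 0.21), the esterase Ces1d (-1.49 ± 0.25), the urea transporter Slc14a2 (-1.48 ± 0.40) and the nucleoside transporter Slc28a3 (-1.56 ± 0.21). Ankrd1 (-2.09 ± 0.68) overlapped between groups, and Tgtp1 (-1.51 ± 0.24) and Pdzrn4 (-1.49 ± 0.22) did not. The calls of Ankrd1 and Slc14a2 were lost without hIAPP 5 and hIAPP 6. Among the smallest p were also the synaptic genes Syt14 (-0.60 ± 0.06) and Ppfia2 (-0.86 ± 0.09), the dendritic cell receptor Ly75 (-0.72 ± 0.07) and Ccdc68 (-0.78 ± 0.09).

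Small noncoding RNAs differed in 1 direction. Of 42 tested small nucleolar RNAs 9 were lower and none higher (median -0.71), of 9 small Cajal body RNAs 4 were lower, and of 20 small nuclear RNAs 4 were lower, beside 10.3% higher and 9.35% lower among 15180 protein-coding genes. Snord17, a box C/D guide for ribosomal RNA methylation, lay at 6.90, 13.1 and 23.1 CPM in WT and at 3.68, 4.94 and 5.57 in hIAPP (-1.57 ± 0.22, adjusted p = 6.20e-05), with no overlap. Counts of such short RNA depend on fragment size selection, which the sources used here do not give.

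Further lists are given by their counts, beside 8.31% of all genes higher and 7.53% lower. Of 30 cell proliferation genes E2f1 (0.34 ± 0.08) was higher and Ccnd1 (-0.43 ± 0.13) lower, and Mki67 did not pass (12.2, 18.4 and 26.8 CPM in WT, 11.2, 21.5 and 41.0 in hIAPP). Of 23 immediate early genes, which respond to handling within minutes, 3 were higher, Atf3 (1.31 ± 0.28), Egr2 and Klf6, and Fos (0.22) did not pass. Glycolysis enzymes were lower in 4 of 17 cases and higher in 2 (median -0.04, or 0.07 with library totals alone), and in none with the acinar covariate. The 4 lower ones separated the groups without overlap. Without hIAPP 5 and hIAPP 6, 3 glycolysis enzymes were lower and none higher. None of the 13 protein genes of the mitochondrial genome passed (median -0.18). Of 6 erythroid markers 3 were lower (median -0.68), among them Hbb-bs (-0.69 ± 0.20), whose counts near-identical globin genes share. The acinar covariate gave no higher immediate early gene and 1 lower erythroid marker. Ccnd1, Egr2 and Klf6 lost their call without hIAPP 5 and hIAPP 6, and Atf3 and Hbb-bs with the acinar score as covariate.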

How the data were processed

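Total RNA of islets from 18 mice (6 per genotype) was sequenced after removal of ribosomal RNA. The deposited table holds the authors' estimated counts per gene symbol, made with STAR and HTSeq on GRCm38 (mm10) per the submitters' processing notes. Of its values above 0, 39.2% are not whole. The sources used here do not say which step gave fractions, which annotation was used or how strand was treated, so overlapping or antisense genes cannot be told apart. Counts were rounded.

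Genes were filtered with filterByExpr (20244 of 54186 symbols kept), scaled by TMM factors and tested with edgeR 4.0.16 (R 4.3.3, limma 3.58.1), using a quasi-likelihood fit over all 18 libraries, the contrast hIAPP minus WT and Benjamini-Hochberg adjustment over all genes tested. The script was checked on simulated counts. Totals of 110 to 166 M counts make counting error small beside the spread between mice, and p-values measure the spread between these samples. Library summaries were compared with two-sided exact permutation tests. Positions are from GENCODE M21 (GRCm38) and promoters from RefSeq (GRCm38.p6).

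Named genes were Iapp, Ins1, Ins2, the 15 largest changes of at least 1 CPM and the 15 smallest p in each direction, the 6 smallest p of each list with members that did not pass, and neighbours of the top gene. The lists and the comparison were chosen with earlier results of these data known. Genes in the X chromosome run, Il34, Csf1 and Aass, and a number of the other members listed with their values, fall outside this rule and were chosen after their values were seen. Alternatives were DESeq2 1.42.0, limma-voom, other scalings and filters, the 12 libraries alone, thinned counts, an acinar covariate and libraries left out. A few genes of these lists are not reported here.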

Additional observations from a re-analysis of the deposited data

Results flagged for a closer look

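For 38 of the 482 sets of 6 libraries examined (each named gene in each genotype), 1 library lay apart from the other 5 by Dixon's test at the 95% level, which chance alone gives for about 1 in 20 sets. The levels below are those of that library against the range of the other 5 of its genotype.

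hIAPP 5 lay above the others for Atf3 (7.95 CPM against 1.65 to 3.21), Atp6v0d2 (13.7 CPM against 1.06 to 4.42), Cd4 (4.7 CPM against 1.44 to 2.12) and Cxcl10 (1.07 CPM against 0.264 to 0.561). The same held there for Gpnmb (73.9 CPM against 12 to 33.6), Hspa5 (856 CPM against 769 to 802), Il1rn (1.22 CPM against 0.161 to 0.518) and Lgals3 (25.5 CPM against 4.92 to 9.09). The same held there for Mmp12 (20.1 CPM against 2.77 to 5.62) and Ppp1r1b (1.66 CPM against 0.413 to 0.669). hIAPP 6 lay above the others for Chac1 (31.7 CPM against 6.3 to 15.2), Cyp27a1 (4.06 CPM against 1.87 to 2.61), Ddit3 (65 CPM against 28.4 to 41.2) and Gpt2 (30.5 CPM against 17 to 22). The same held there for Mtdh (118 CPM against 99.9 to 106) and Trib3 (21 CPM against 5.41 to 8.3). hIAPP 3 lay above the others for Rprml (0.699 CPM against 0.403 to 0.475). hIAPP 4 lay above the others for Ankrd1 (0.798 CPM against 0.033 to 0.301) and Lpl (76.6 CPM against 55.8 to 63.1). WT 1 lay above the others for E2f1 (11.7 CPM against 9.75 to 10.4). WT 4 lay above the others for Fgf21 (0.124 CPM against 0.0201 to 0.0461). WT 5 lay above the others for Hmox1 (3.68 CPM against 2.8 to 3.11), Il18bp (2.47 CPM against 1.44 to 1.8), Itgax (3.19 CPM against 2.14 to 2.5) and Mcoln1 (24.2 CPM against 18.7 to 20.2). The same held there for Srebf2 (69.3 CPM against 49.7 to 57). WT 5 lay below the others for Abcg1 (67.7 CPM against 75.9 to 80.3), Ccnd1 (78 CPM against 98.1 to 107) and Gcg (17600 CPM against 25200 to 28600). WT 6 lay above the others for C1qb (11.2 CPM against 8.02 to 9.11), Ccr2 (4.07 CPM against 2.23 to 2.91), Ins1 (48100 CPM against 41300 to 43600) and Lyve1 (38.4 CPM against 18.5 to 24.9). The same held there for Mmp12 (2.53 CPM against 1.34 to 1.68), Nnat (354 CPM against 142 to 204), Ppp1r1b (5.79 CPM against 2.42 to 3.39) and Tspyl5 (8.68 CPM against 6.72 to 7.24). WT 6 lay below the others for Scarb1 (21.1 CPM against 23.2 to 23.8).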

How the results depend on the processing

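The counts of 1683 higher and 1525 lower genes moved by over 1.5 times under 3 alternatives. With library totals alone they were 3139 and 480, with the acinar score as covariate 507 and 294, and without hIAPP 5 and hIAPP 6 1037 and 638, of which 953 and 585 were also called in the full comparison. The cause was not tested. Leaving out 1 of the 12 libraries gave 1333 to 1955 higher and 1025 to 1964 lower genes, the most without WT 5. DESeq2 (1962 and 1862), limma-voom (1999 and 1941) and the other scalings, filters and thinning stayed within 1.5 times. Of 192 named genes that were called, 120 kept their call under every alternative run and 72 lost it under at least 1. Slc2a2, Pdx1, Ankrd1, Srebf2, Klf6, Tlr7, Il1rap, Mtdh and Pou3f4 lost theirs in most of the comparisons that left out 1 library.

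Changes of sign were seen only for named genes that did not pass. With the acinar score as covariate the log2 fold change became -0.06 for Atf6, -0.03 for Casp1 and Eif2ak3, 0.01 for Gcg, 0.32 for Il1b, -0.10 for Nqo1, -0.11 for Plxnb3, 0.05 for Ppy and -0.02 for Soat1. With library totals alone it became 0.02 for Ppy, 0.11 for Hspa5, 0.08 for Mdm2, 0.09 for Nkx2-2 and 0.10 for Xbp1. Without hIAPP 5 and hIAPP 6 it was 0.07 for Il1b, -0.04 for Nlrp3, 0 for Txnrd1 and 0.05 for Xbp1. In limma-voom it was -0.01 for Abcg1 and Eif2ak3, -0.18 for Fos and 0 for Xbp1, and with a filter at 1 CPM 0 for Hspa5 and Xbp1. Leaving out 1 library gave 0 to 0.05 for Abcg1, -0.07 to 0.02 for Hspa5 and -0.03 to 0.02 for Xbp1. No paired analysis was possible because replicate numbers were given in accession order and pair no mice.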
